A study of Homo sapiens with 8 samples.

Results

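The genes described here are the 32 ligands of the transforming growth factor beta (TGF-beta) superfamily, out of 20162 protein-coding genes of the GENCODE annotation on GRCh37. They were chosen by name, and each gene was read over a window of its gene body plus 2000 bp upstream. The measure was the length of the window covered by islands of H3K27me3 or H3K4me3, that is, by regions in which ChIP-seq tags were denser than a random background gives. The cells were PC9, a human lung adenocarcinoma line, treated for 5 days with DMSO or with 1 μM GSK126, a small molecule inhibitor of the methyltransferase EZH2. There were 8 libraries, with 2 biological replicates for each of the groups H3K27me3 DMSO, H3K27me3 GSK126, H3K4me3 DMSO and H3K4me3 GSK126, and chromatin of D. melanogaster had been added to every reaction as a spike-in.

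Most ligands of this superfamily are secreted as dimers that bind pairs of type I and type II serine/threonine kinase receptors, which in turn phosphorylate SMAD proteins. TGF-betas, activins and nodal act mainly through SMAD2 and SMAD3, and bone morphogenetic proteins (BMPs) act through SMAD1, SMAD5 and SMAD9. Most growth differentiation factors (GDFs) are divided between these branches, with GDF5, GDF6 and GDF7 in the BMP branch and GDF11 and myostatin in the other. Inhibin and the lefty proteins are antagonists within the family. H3K27me3 is deposited by Polycomb repressive complex 2, of which EZH2 is the catalytic subunit, and covers developmental genes that are kept silent. H3K4me3 marks the starts of active or poised genes, and starts that carry both marks are called bivalent.

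In the DMSO lists the ligands fell into classes by their marks. H3K27me3 islands were found in both DMSO replicates at 14 of the 32 ligands, namely TGFB3, BMP7, BMP8A, BMP8B, GDF2, GDF6, GDF7, GDF10, INHA, INHBB, INHBC, INHBE, NODAL and LEFTY2 (43.8%), whereas the share over all protein-coding genes was 27.6%. GDF1 had an H3K27me3 island in DMSO replicate 1 and in no other spike-in list. A further 11 ligands (TGFB1, TGFB2, BMP2, BMP3, BMP4, BMP6, GDF5, GDF9, GDF11, GDF15 and INHBA) had H3K4me3 and no H3K27me3 in any list. The remaining 6 (BMP5, BMP10, GDF3, LEFTY1, AMH and MSTN) had no island of either mark in any of the 14 lists. The list includes factors of the heart (BMP10), of muscle (MSTN, myostatin) and of sex differentiation (AMH, anti-Müllerian hormone).

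The gene start, taken as the first base of the canonical transcript with 1000 bp on each side, was also compared with the marks. H3K4me3 was present there in both DMSO replicates for 15 ligands (46.9%, against 61.9% of all genes), and H3K27me3 for 9 (28.1%, against 18%). Both marks were present at the starts of BMP8B and INHBB (6.25%, against 4.98%). These counts use the spike-in lists, and in the DMSO standard lists BMP8B had no H3K27me3 island at its start. The starts of BMP7, GDF2, GDF6, GDF7, GDF10, NODAL and LEFTY2 carried H3K27me3 without H3K4me3, which was 21.9% of the ligands and 12.1% of all genes.

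The sequences before representative starts are shown because, over all genes, the classes differ in their content of CG dinucleotides. Such dinucleotides are dense in the CpG islands that both marks favour. The promoter sequences were those of RefSeq on GRCh38.p14, of which 25 of the 32 ligands had an entry, and each was placed on GRCh37 by an exact match. Among the ligands with H3K27me3 and no H3K4me3 at the start, BMP7, GDF6 and LEFTY2 had no entry. The sequences shown were chosen after the values were seen, to show each class. The 200 bases that end just before the start are given 5′ to 3′ on the strand of the gene, with each CG in capitals. INHBB carried both marks (chr2:121103512-121103711, plus strand). GDF7 (chr2:20866704-20866903, plus strand), GDF10 (chr10:48439166-48439365, minus strand) and NODAL (chr10:72201438-72201637, minus strand) carried H3K27me3 without H3K4me3. TGFB1 (chr19:41859828-41860027, minus strand) and INHBA (chr7:41742689-41742888, minus strand) carried H3K4me3 without H3K27me3, and MSTN (chr2:190927456-190927655, minus strand) carried neither.
INHBB: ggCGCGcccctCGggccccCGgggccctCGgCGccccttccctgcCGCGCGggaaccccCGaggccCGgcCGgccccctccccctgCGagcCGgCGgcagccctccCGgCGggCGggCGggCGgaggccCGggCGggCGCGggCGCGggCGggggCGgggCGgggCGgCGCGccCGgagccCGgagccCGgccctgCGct
GDF7: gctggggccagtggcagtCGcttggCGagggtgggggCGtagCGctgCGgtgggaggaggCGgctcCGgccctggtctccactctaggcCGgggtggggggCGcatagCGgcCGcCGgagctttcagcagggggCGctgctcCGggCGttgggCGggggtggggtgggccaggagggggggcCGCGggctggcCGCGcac
GDF10: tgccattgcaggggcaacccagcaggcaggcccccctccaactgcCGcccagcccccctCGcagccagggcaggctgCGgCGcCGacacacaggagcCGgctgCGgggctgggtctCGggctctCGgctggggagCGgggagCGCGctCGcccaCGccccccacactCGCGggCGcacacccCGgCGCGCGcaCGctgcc
NODAL: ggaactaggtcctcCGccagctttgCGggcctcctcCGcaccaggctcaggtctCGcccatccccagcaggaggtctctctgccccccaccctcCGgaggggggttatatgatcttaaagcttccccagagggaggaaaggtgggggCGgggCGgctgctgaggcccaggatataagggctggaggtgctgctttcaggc
TGFB1: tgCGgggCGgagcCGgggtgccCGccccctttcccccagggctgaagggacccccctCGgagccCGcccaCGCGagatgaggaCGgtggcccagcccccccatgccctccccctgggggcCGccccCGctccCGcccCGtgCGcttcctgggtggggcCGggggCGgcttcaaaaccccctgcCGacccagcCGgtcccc
INHBA: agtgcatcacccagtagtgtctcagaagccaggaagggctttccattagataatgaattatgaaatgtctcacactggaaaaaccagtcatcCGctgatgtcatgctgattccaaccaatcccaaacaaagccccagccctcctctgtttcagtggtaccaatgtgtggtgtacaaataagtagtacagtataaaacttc
MSTN: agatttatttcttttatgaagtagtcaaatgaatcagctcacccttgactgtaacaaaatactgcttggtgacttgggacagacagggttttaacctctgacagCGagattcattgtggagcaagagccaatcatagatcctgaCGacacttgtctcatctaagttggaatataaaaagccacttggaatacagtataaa

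The stretch before INHBB held 36 CG, whereas GDF10 held 22, GDF7 20, TGFB1 18, NODAL 7, MSTN 2 and INHBA 1. The letters searched were CG, which reads the same on both strands. Over the full RefSeq stretch, which runs from 250 bases before to 50 bases after the start, at least 1 CG was found in 98.1% of 15093 promoters of all genes, with a median of 22. For this count the marks were read over the 300 bases alone. INHBB held 58 CG, the most among the 25 ligands, and BMP8B held 37. The 3 ligands whose marks differed between replicates, GDF1, BMP8A and TGFB3, held 50, 47 and 10. Their median was 47, against 13.5 over the 978 promoters of all genes in that class. The median of the 2 ligands with both marks was 47.5, against 30 over the 457 promoters of all genes in that class.

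The 6 ligand promoters with neither mark held between 1 and 8 CG, with a median of 2.5, against 4 over 3207 promoters of all genes. The 4 with H3K27me3 alone ranged from 8 (GDF2) to 29 (GDF10), with a median of 19.5, against 10 over 1598 promoters. The 10 with H3K4me3 alone also had a median of 19.5, against 27 over 8853 promoters. The range in that class was wide, since INHBA, the activin beta A subunit, held 1 CG and BMP6 held 33. A low CG count was therefore found both in promoters with H3K4me3 and in promoters without any mark.

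**Figure D1:**
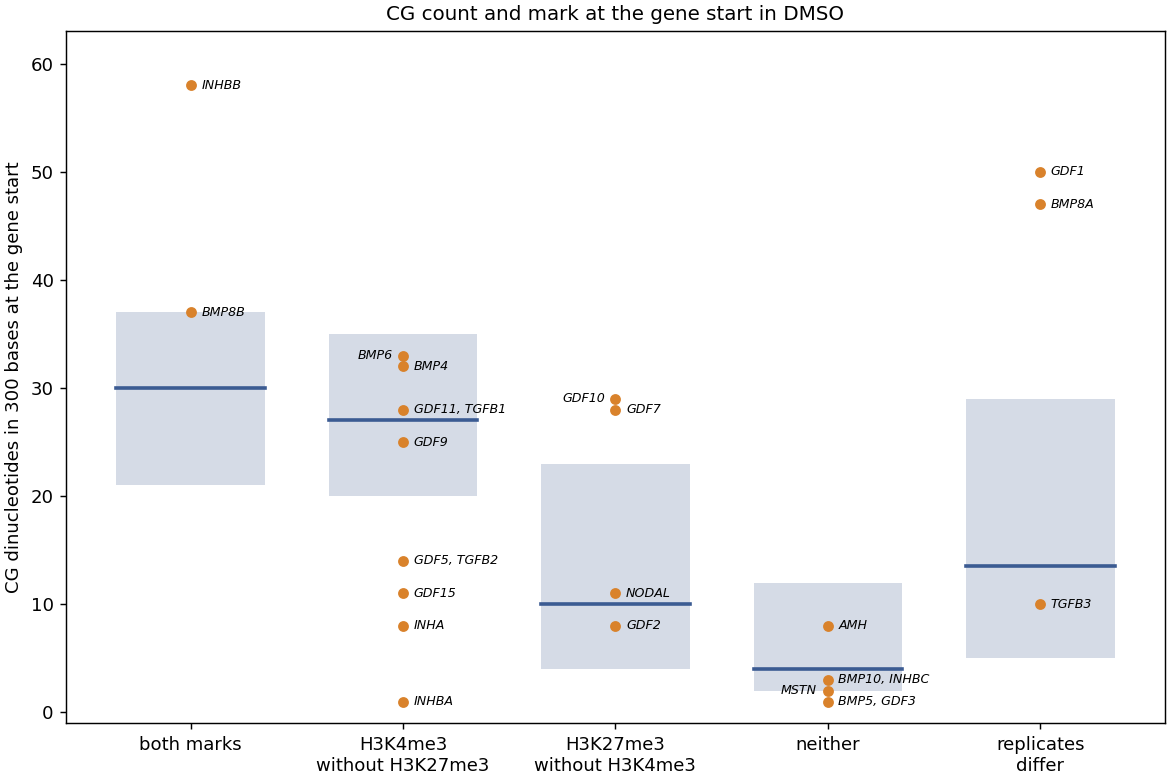
Number of CG dinucleotides in the 300 bases at the gene start (y axis) for promoters grouped by the marks found there in both DMSO replicates (x axis). Orange points are the 25 ligands with a RefSeq promoter, grey boxes span the first to the third quartile of 15093 promoters of all genes, and blue lines are their medians. INHBB, with 58, lies highest, and the 6 ligands with neither mark lie at 8 or below.

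Before the effect of GSK126 is given, the depth behind each list has to be stated, because it differs by design. The authors made spike-in lists, in which tags of the GSK126 library had been removed according to the D. melanogaster tags, and standard lists, in which both libraries of a replicate had been brought to the same number of human tags. Read from the island scores, the H3K27me3 spike-in lists held 1.65 and 2.33 tags per 200 bp window in DMSO replicates 1 and 2, and 0.382 and 0.455 with GSK126, which is 23.1% and 19.6% of DMSO. The H3K27me3 standard lists held 1.36 tags in both libraries of replicate 1 and 1.55 in both libraries of replicate 2. For H3K4me3 the GSK126 spike-in lists held 83.6% and 86.9% of the DMSO density, and replicate 2 was shallow, with 0.302 tags per window in DMSO against 1.77 in replicate 1. A window of low tag density is lost first when tags are removed, so the spike-in and standard values are given side by side, and the part of tag number in the loss of weak islands was not tested. As to the cell type, H3K4me3 was found at the starts of all 8 epithelial and lung adenocarcinoma markers that were examined (EPCAM, CDH1, KRT7, KRT8, KRT18, KRT19, EGFR and NKX2-1) and at none of 6 B cell markers in both DMSO replicates.

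With GSK126, H3K27me3 over the ligands fell in the spike-in lists. Summed over the ligand windows, islands took up 191.2 kb in replicate 1 and 206.2 kb in replicate 2 of DMSO, which fell to 96.4 and 99.0 kb with GSK126. Both GSK126 values lay below both DMSO values. The log2 ratio within replicates was -1.02 ± 0.05 (SD, n = 2), and over all protein-coding genes it was -1.06 ± 0.02. At equal tag number, in the standard lists, the ligands covered 183.2 and 183.3 kb with DMSO and 168.5 and 132.5 kb with GSK126, a log2 ratio of -0.29 ± 0.25, against -0.31 ± 0.14 over all genes. With 2 pairs the smallest p of an exact two-sided sign-flip test is 0.5, so no test was made, and each value is given with its SD between replicates. BMP7 alone made up 45.3% and 42.4% of the summed length in DMSO, and without it the ratios were -1.93 in the spike-in lists and -0.61 in the standard lists.

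Counted by gene, 10 of the 14 ligands marked in DMSO (71.4%) kept 50% or less of their covered length in both replicates of the spike-in lists, against 56.3% of 5573 marked genes. No island was left in either replicate at 8 of the 14 (57.1%), against 32%. With stricter islands, of at least 2 times the lowest score of a list, 5 of 9 marked ligands kept 50% or less (55.6%, against 56.5% of 4510 genes) and 3 of 9 had no island left (33.3%, against 35.6%), so the ligands were then close to all genes. In the standard lists, where 10 ligands were marked in both DMSO replicates, BMP8A and GDF2 kept 50% or less (20%, against 15.7% of 5101 genes), and 6 of 10 were shorter in both replicates to any extent (60%, against 56.3%). Genes enter these counts only if they were marked in DMSO, so the counts can show loss but not gain. No ligand without H3K27me3 in DMSO had an island in both GSK126 replicates, either in the spike-in lists (0 of 17, against 0.0146% of genes) or in the standard lists (0 of 18, against 0.261%).

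**Figure D2:**
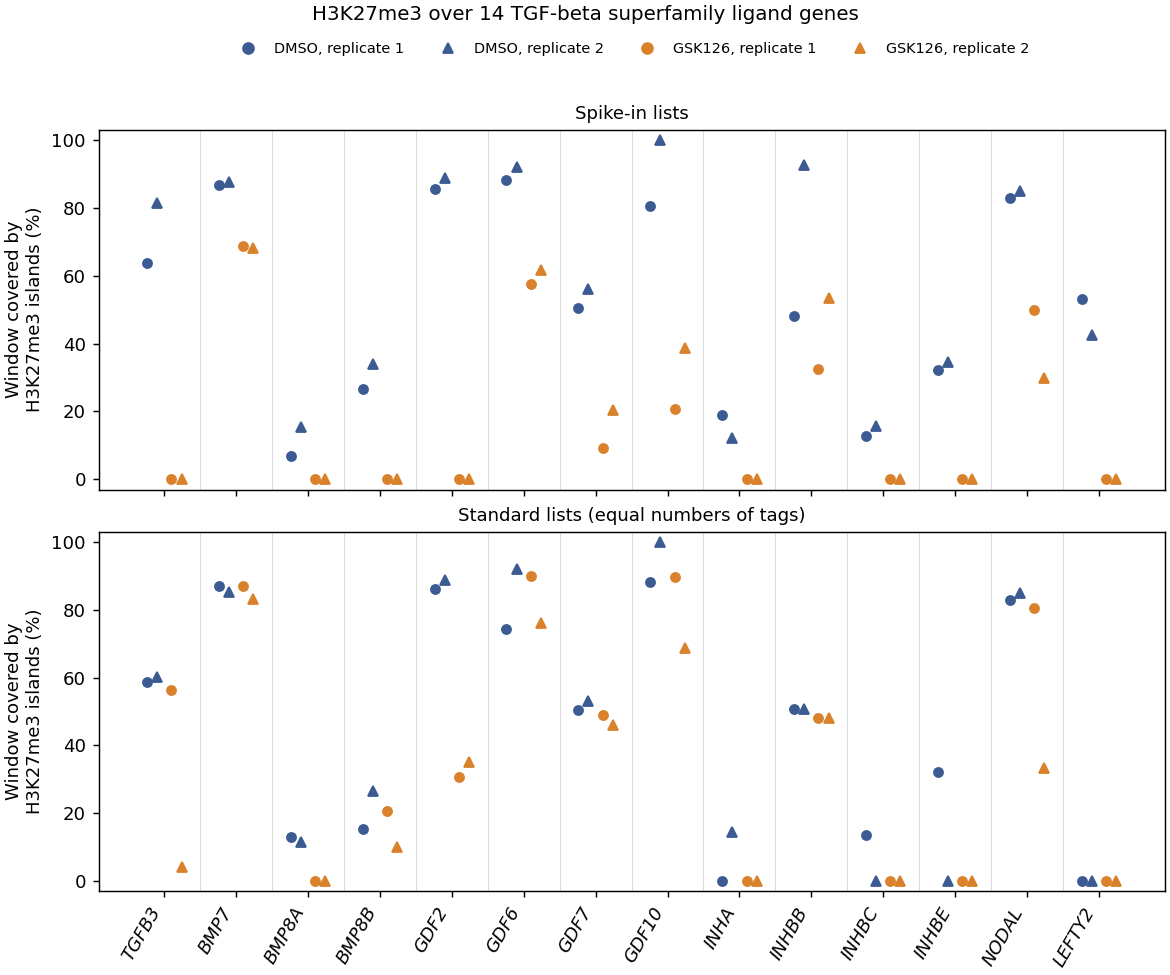
Share of each gene window covered by H3K27me3 islands in percent (y axis) for the 14 ligands marked in both DMSO spike-in lists (x axis), in the spike-in lists (top) and the standard lists (bottom). Each symbol is a single library, blue for DMSO and orange for GSK126, with circles for replicate 1 and triangles for replicate 2. In the top panel 8 genes lie at 0 with GSK126, and in the bottom panel BMP7, GDF7 and INHBB change little.

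Among the BMPs, BMP7, which acts in kidney and skeletal development, carried the longest H3K27me3 domain (window chr20:55743809-55843697). Its islands covered 86.7 and 87.5 kb with DMSO and 68.7 and 68.1 kb with GSK126 in the spike-in lists. The GSK126 values were 79.2% and 77.8% of DMSO, and the groups did not overlap. At equal tag number BMP7 covered 86.9 and 85.1 kb with DMSO and 86.9 and 83.1 kb with GSK126, which is 100% and 97.7%. BMP7 thus kept most of its length under both normalizations. In every H3K27me3 list a stretch inside the gene was free of islands, from 7.20 to 8.20 kb long in the DMSO spike-in lists and 11.8 and 11.6 kb long with GSK126. In the standard lists it was 8.2 and 8.8 kb long with DMSO and 8.6 and 10 kb long with GSK126. It lay within intron 2 of the 7-exon canonical transcript, except in the spike-in list of GSK126 replicate 2, where it also took in exon 3. The H3K4me3 islands of BMP7 lay at the edges of this stretch and not at the gene start. They covered 3.60 and 1.40 kb with DMSO and 2.40 and 0 kb with GSK126.

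The domain at GDF6 (chr8:97154561-97175034), a ligand of joint and skeletal patterning, behaved in a similar way. It covered 18 and 18.8 kb with DMSO and 11.8 and 12.6 kb with GSK126 in the spike-in lists, 65.4% and 66.9% of DMSO. The standard lists gave 15.2 and 18.8 kb with DMSO and 18.4 and 15.6 kb with GSK126, so the groups overlapped. GDF7 (chr2:20864904-20879003), a close relative of GDF6, was reduced further in the spike-in lists, from 7.10 and 7.90 kb to 1.30 and 2.90 kb. The spike-in values were 18.3% and 36.7% of DMSO. At equal tag number GDF7 covered 7.1 and 7.5 kb with DMSO and 6.90 and 6.50 kb with GSK126. What remained of the GDF7 domain in the spike-in lists lay before the gene start in replicate 1 and before and at the start in replicate 2. The island of replicate 1 ended before the sequence given above, and that of replicate 2 took it in.

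GDF2, which encodes BMP9, a circulating ligand for endothelial cells, and GDF10, which encodes a relative of BMP3, are neighbours on chromosome 10 with windows 6.88 kb apart. They are not independent, since a single island of 52.2 kb spanned both genes in DMSO replicate 2 of the spike-in lists. GDF2 (chr10:48411774-48418908) was covered over 6.11 and 6.34 kb with DMSO and 0 kb in both GSK126 spike-in lists. At equal tag number it covered 6.14 and 6.34 kb with DMSO and 2.20 and 2.51 kb with GSK126, which is 35.9% and 39.6%. GDF2 was thus reduced in both replicates whichever lists were used. GDF10 (chr10:48425785-48441165) was covered over 12.4 and 15.4 kb with DMSO and 3.17 and 5.97 kb with GSK126 in the spike-in lists, 25.6% and 38.8%. The standard lists put GDF10 at 13.6 and 15.4 kb with DMSO and 13.8 and 10.6 kb with GSK126, so replicate 1 rose slightly while replicate 2 fell. The GDF10 start, rich in CG as shown above, lay inside an island in both DMSO spike-in lists and in neither GSK126 spike-in list.

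BMP8A (chr1:39955308-39995541) and BMP8B (chr1:40222854-40256537) are near-identical copies 227 kb apart. Tags of 50 bases can be placed uniquely over 65.7% and 61.7% of their windows, against 87.3% or more at every other ligand, and 31.4% of the 50-base words of BMP8A are found in the window of BMP8B. Their values are therefore less certain, because reads shared by the copies had been left out. BMP8A was covered over 2.80 and 6.20 kb with DMSO and 0 kb with GSK126 in the spike-in lists, and over 5.2 and 4.6 kb with DMSO and 0 kb with GSK126 in the standard lists. It was the only marked ligand that lost all islands in both replicates of both kinds of list. BMP8B was covered over 9 and 11.4 kb with DMSO and 0 kb with GSK126 in the spike-in lists. The standard lists put BMP8B at 5.2 and 9 kb with DMSO and 7.00 and 3.40 kb with GSK126, so the replicates moved in opposite directions.

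TGFB3 (chr14:76424440-76451354) was the only TGF-beta with H3K27me3. It is one of the 3 TGF-beta cytokines, and TGFB1 and TGFB2 had none in any list. The TGFB3 islands covered 17.2 and 21.9 kb with DMSO and 0 kb with GSK126 in the spike-in lists. In the standard lists they covered 15.8 and 16.2 kb with DMSO and 15.2 and 1.16 kb with GSK126, so replicate 1 kept 96.2% and replicate 2 kept 7.18%. The H3K27me3 of TGFB3 lay mostly downstream of the start, whereas its H3K4me3 lay at the start. H3K4me3 and H3K27me3 overlapped over 2.20 and 3.40 kb of the window in DMSO and nowhere with GSK126 in the spike-in lists. The H3K4me3 island of TGFB3 also held the start of IFT43 in replicate 1.

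NODAL (chr10:72191692-72209707), which specifies mesoderm and the left side of the embryo, kept an island at its start in all GSK126 lists. It was covered over 14.9 and 15.3 kb with DMSO and 9 and 5.4 kb with GSK126 in the spike-in lists, 60.4% and 35.3%. At equal tag number NODAL was at 14.9 and 15.3 kb with DMSO and 14.5 and 6 kb with GSK126, so it kept 97.3% in replicate 1 and 39.2% in replicate 2. LEFTY2 (chr1:226124298-226131083), an antagonist of nodal, was covered over 3.60 and 2.88 kb in the DMSO spike-in lists and in no GSK126 or standard list. Its neighbour LEFTY1, 23.2 kb away, had no island. LEFTY2 thus had H3K27me3 only at the deeper tag numbers of the DMSO spike-in lists.

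The activin and inhibin subunits differed among themselves. INHBB (chr2:121101712-121109379), the activin beta B subunit, was the only ligand with both marks at its start in every spike-in list. Its H3K27me3 covered 3.69 and 7.09 kb with DMSO and 2.49 and 4.09 kb with GSK126, 67.5% and 57.7% of DMSO. In the standard lists it was at 3.89 kb in both DMSO replicates and 3.69 kb in both GSK126 replicates, or 94.9%. In the spike-in lists H3K4me3 overlapped H3K27me3 at INHBB over 3.69 and 5.89 kb with DMSO and over 2.49 and 4.09 kb with GSK126. At equal tag number this overlap was 3.89 kb in both DMSO replicates and 3.69 kb in both GSK126 replicates. In DMSO replicate 1 the H3K27me3 island ran for 22.8 kb, mostly upstream of the gene, and the H3K4me3 island for 9.80 kb around the start.

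The other marked subunits had short islands. INHBC and INHBE, beta subunits expressed mainly in liver, have windows that overlap by 1740 bp and share a single island of 3.60 kb in DMSO replicate 1 and 4.4 kb in replicate 2, so they are not independent, although both enter the counts above. INHBC was covered over 2.44 and 3.04 kb and INHBE over 2.90 and 3.10 kb with DMSO, and both were at 0 kb with GSK126 in the spike-in lists. In the standard lists this island was present in DMSO replicate 1 alone, where it covered 2.65 kb of the INHBC window and 2.90 kb of the INHBE window. INHA, the inhibin alpha subunit, was covered over 1.63 and 1.03 kb with DMSO and 0 kb with GSK126. At equal tag number INHA had an island in DMSO replicate 2 alone, of which 1.23 kb lay in the window. These genes, with LEFTY2, are the 4 of the 8 ligands without remaining islands that were missing from a DMSO standard list, while 3 others (TGFB3, BMP8B and GDF2) had islands in both GSK126 standard lists.

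**Figure D3:**
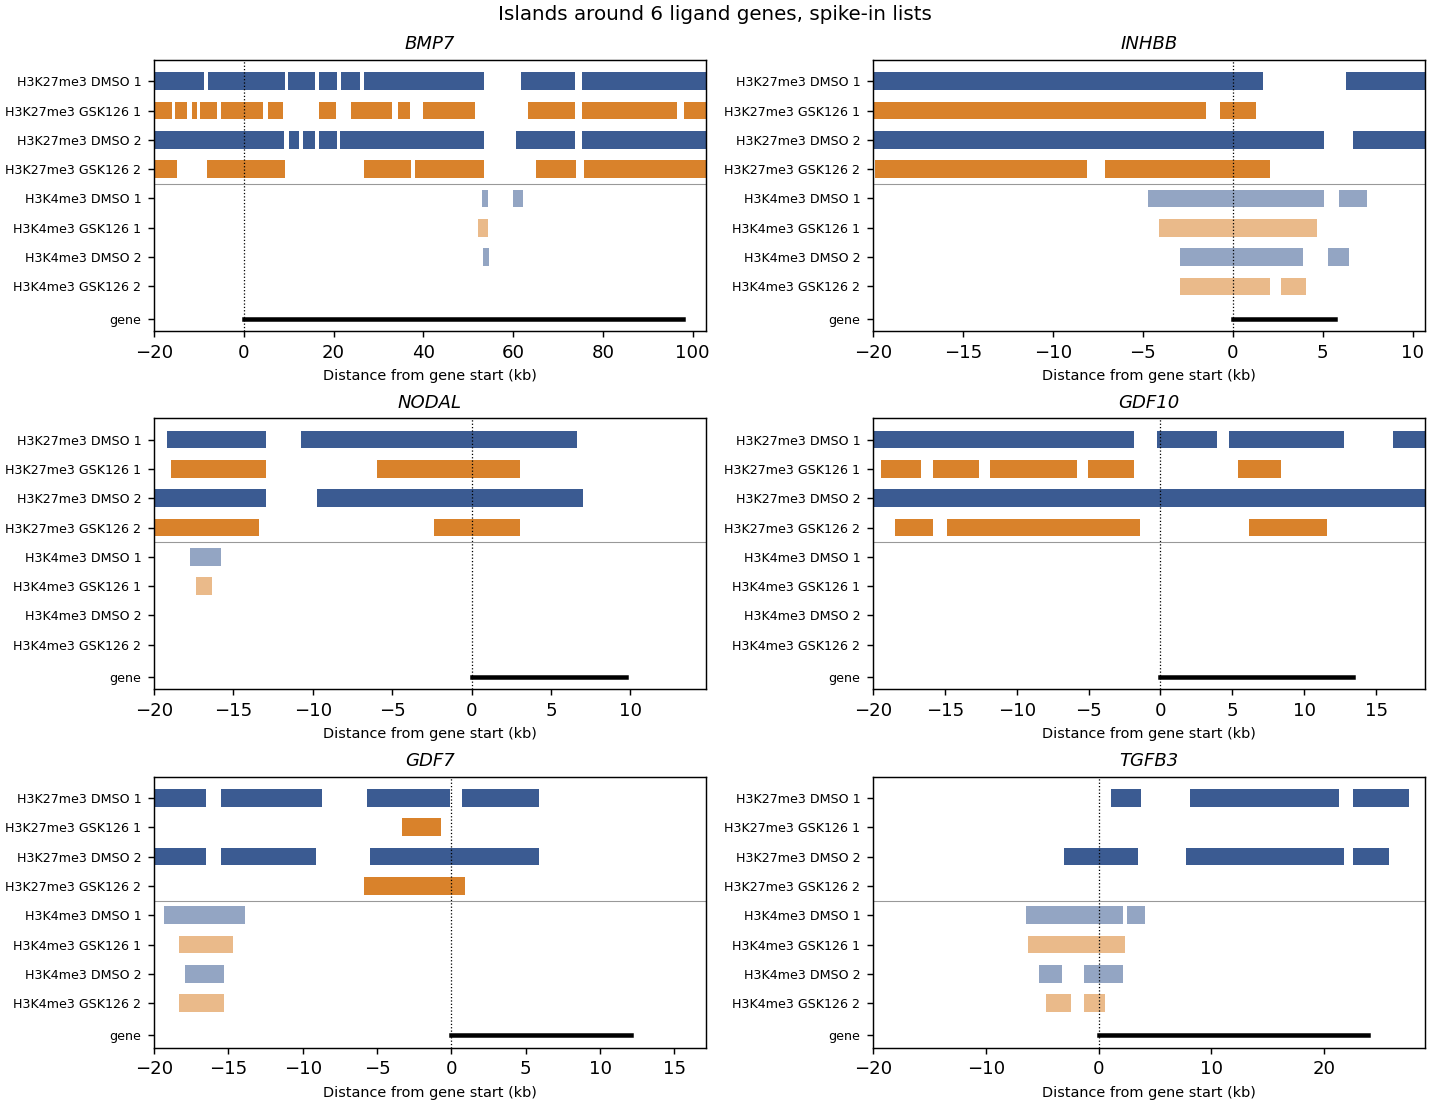
Islands of H3K27me3 (upper 4 rows of each panel, dark) and H3K4me3 (lower 4 rows, pale) around 6 ligands in the spike-in lists, plotted by distance in kb from the gene start in the direction of transcription (x axis), with blue for DMSO and orange for GSK126 in replicates 1 and 2. The black line is the gene. H3K27me3 islands of BMP7, INHBB and NODAL still hold the start with GSK126, those of GDF10 do not, and no island is left at TGFB3.

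The island scores of the marked ligands in DMSO are given here as a description, and a score belongs to the whole island, also where part of it lies outside the window. In DMSO replicate 1 the highest island scores among the 14 were those of BMP7 (7758, from an island of 110.2 kb with 22.6 kb in the window), INHBB (1931, 22.8 kb with 3.69 kb in the window), GDF10 (1155, with 165 bp in the window), GDF6 (1037) and NODAL (717), and all of these kept an island with GSK126 in both spike-in replicates. TGFB3 followed with 314 and lost its islands, and GDF7 with 311 kept one. The islands of GDF10 that lay wholly inside its window scored up to 284, below TGFB3. In DMSO replicate 2 GDF7 had a score of 789 and TGFB3 of 323, and among the ligands that lost all islands the highest score other than that of the island shared by GDF2 and GDF10 (2482) was that of TGFB3. The remaining scores in replicate 1 ranged from 42.6 (INHA) to 263 (GDF2), where the lowest score in the list was 41.3.

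Because both standard lists of a replicate hold the same tag density, scores can be compared between treatments there. The score is a sum of negative log probabilities and so rises faster than the tag count, and this comparison was chosen after the values were seen. Over each window the scores were summed in proportion to the overlap. At GDF6 the summed score was 818 and 1106 with DMSO and 1150 and 1699 with GSK126, which is 1.40 and 1.54 times DMSO. At BMP7 it was 4331 and 5122 with DMSO and 4881 and 6912 with GSK126, or 1.13 and 1.35 times. These were the 2 of 10 ligands with a higher score in both replicates (20%, against 32.7% of genes). At equal tag number a score depends on a gene's share of the tags, so a higher score does not show that H3K27me3 rose in amount. In the spike-in lists the covered length of both genes fell, as given above.

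The summed score was lower in both replicates at 6 of the 10 (60%, against 49.3% of genes), namely BMP8A, BMP8B, GDF2, GDF7, NODAL and TGFB3. The score of GDF7 was 0.806 and 0.519 times DMSO although its covered length was nearly the same, and that of NODAL was 0.755 and 0.472 times DMSO. INHBB, at 0.933 and 1.43 times, and GDF10, at 1.05 and 0.390 times, moved in opposite directions between replicates. The median over the 10 ligands was 0.836 and 0.458 in replicates 1 and 2, and over 5101 genes it was 0.930 and 0.784. Replicate 2 thus showed a lower median than replicate 1 both for the ligands and for all genes.

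**Figure D4:**
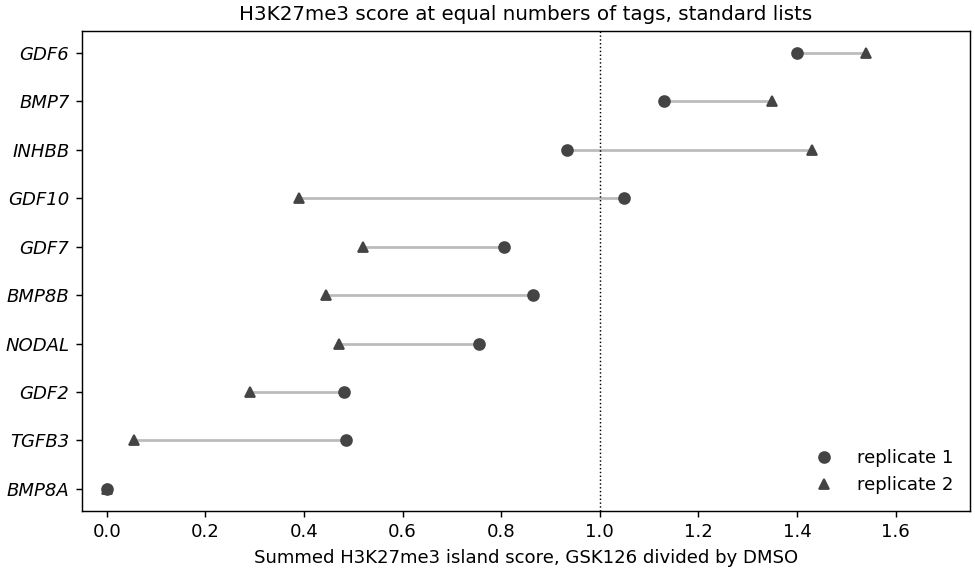
Summed H3K27me3 island score with GSK126 divided by that with DMSO (x axis) for the 10 ligands marked in both DMSO standard lists (y axis). Circles are replicate 1, triangles replicate 2, and the dotted line marks equal scores. GDF6 and BMP7 lie above 1 in both replicates, and BMP8A lies at 0 in both. Both treatments hold the same tag number here, and the covered length of GDF6 and BMP7 fell in the spike-in lists.

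H3K4me3 covered 18 ligands in both DMSO replicates, and its length changed little with GSK126. No ligand reached 2 times its DMSO length or fell to 50% or less of it in both spike-in replicates (0 of 18 each, against 0.00732% and 0.754% of 13669 genes). Summed over all ligands, H3K4me3 covered 102.2 and 58.7 kb with DMSO and 93.2 and 55.9 kb with GSK126 in the spike-in lists, a log2 ratio of -0.10 ± 0.04 (SD, n = 2), against -0.18 ± 0.01 over all genes. In the standard lists the ratio was -0.12 ± 0.08, against -0.17 ± 0.09. The difference between replicates 1 and 2 within a treatment was larger than that between treatments.

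H3K4me3 was longer than DMSO in both spike-in replicates at INHBA and INHBE (11.1%, against 8% of genes) and shorter at TGFB1, TGFB3, BMP6, BMP7, GDF1, GDF5, GDF9 and INHBB (44.4%, against 37.1%). At equal tag number GDF1 was at 101% of DMSO in replicate 1 and 58.4% in replicate 2, and the other genes named moved the same way as in the spike-in lists. In the spike-in lists INHBA was covered over 10.4 and 6 kb with DMSO and 12.2 and 7.6 kb with GSK126. The GSK126 values were 117% and 127% of DMSO, but the groups overlapped because replicate 2 was shorter throughout. At INHBE the covered part, 0.463 kb in both DMSO replicates and 0.863 and 0.663 kb with GSK126, was the end of an island that held the start of GLI1, so it did not lie at the start of INHBE.

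TGFB1, a cytokine that restrains epithelial growth, was covered over 14.4 and 9.40 kb with DMSO and 14 and 8.4 kb with GSK126, part of which belonged to the start of CCDC97 inside its window. TGFB2 was at 10.9 and 2.80 kb with DMSO and 10.3 and 4.20 kb with GSK126, so its replicates moved in opposite directions. GDF15, a ligand induced by cellular stress, was at 6.99 and 3.19 kb with DMSO and 6.39 and 3.99 kb with GSK126. Across the 18 ligands the GSK126 length ranged from 66.7% to 186% of DMSO in replicate 1 and from 0% to 150% in replicate 2, where the lowest was BMP7 and the highest was TGFB2.

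Several H3K4me3 islands cannot be assigned to the ligand alone. The islands at GDF9, an oocyte factor, held the start of UQCRQ as well, and those at INHA held the start of OBSL1. The start of GDF1 is also that of CERS1, with which it shares a transcript, and the H3K4me3 of GDF5 lay at the upstream end of its window, where the island held the start of CEP250. The RefSeq start of GDF5 also lies at that end, away from the canonical start, so GDF5 counts among the promoters with H3K4me3 in the CG comparison. BMP8A had H3K4me3 at its start in replicate 1 alone, with 1.60 kb in DMSO and 1.40 kb with GSK126.

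**Figure D5:**
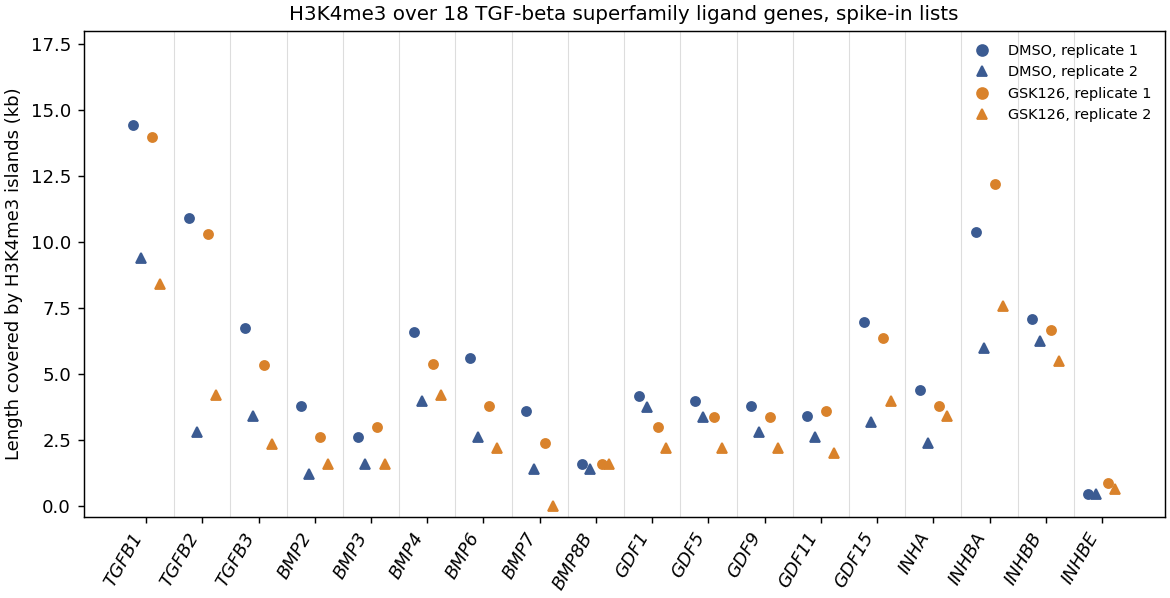
Length covered by H3K4me3 islands in kb (y axis) in the spike-in lists for the 18 ligands with an island in both DMSO replicates (x axis). Each symbol is a single library, blue for DMSO and orange for GSK126, with circles for replicate 1 and triangles for replicate 2. Replicate 2 lies below replicate 1 in DMSO at every gene except INHBE, where they are equal, and INHBA is higher with GSK126 in both replicates.

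None of the 7 ligands with H3K27me3 and no H3K4me3 at the start in DMSO had H3K4me3 there in both GSK126 replicates, against 0.205% of 2435 such genes. With GSK126, BMP7, GDF6, GDF7 and NODAL still carried H3K27me3 alone at the start in both spike-in replicates, and GDF2, GDF10 and LEFTY2 carried neither mark there. At GDF7 in replicate 1 the island ended before the first base of the gene, within the 1000 bp taken as its start. BMP8B, which had both marks in the DMSO spike-in lists, had H3K4me3 alone in the GSK126 spike-in lists. Its H3K4me3 length was 1.60 and 1.40 kb in DMSO and 1.60 and 1.60 kb with GSK126. The H3K27me3 island at its start scored 45.5 and 51.2 in DMSO, near the lowest scores of those lists, 41.3 and 42.7. In the standard lists BMP8B had no H3K27me3 island at its start with either treatment. INHBB kept both marks. In the spike-in lists the number of ligands with neither mark at the start rose from 9 to 12 of 32. Over all genes the share rose from 21.5% to 27.7% in these lists. The added ligands were GDF2, GDF10 and LEFTY2. At equal tag number GDF2 and GDF10 had an H3K27me3 island at the start in both replicates of both treatments. LEFTY2 had none there with either treatment, so at equal tag number the presence of an island within 1000 bp of these starts did not change. The whole island at the GDF2 start was shorter, at 10 and 12.2 kb with DMSO and 2.20 and 4.20 kb with GSK126. The first base of GDF10 lay inside an island with both treatments in replicate 1, but only with DMSO in replicate 2. The part of tag number in the rise was not tested.

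The other genes of the pathway were read by the same rules from lists of receptors, SMADs, antagonists and targets. H3K27me3 was present in both DMSO spike-in lists at 10 of these 47 genes (21.3%, against 27.6% of all genes), and 4 of the 10 (40%, against 56.3%) kept 50% or less with GSK126 in both replicates. It was found at 2 of 14 receptors (ACVR1B and ACVRL1), at 1 of 8 SMADs (SMAD9, of the BMP branch) and at 1 of 8 targets (ID2). None of these fell to 50% or less in both replicates, although ACVR1B and ID2 did in replicate 2. SMAD9 was covered over 3400 and 2800 bp with DMSO and 3200 and 4800 bp with GSK126, so its replicates moved in opposite directions. The standard lists put SMAD9 at 7024 and 3800 bp with DMSO and 7200 and 4400 bp with GSK126. ACVRL1, a receptor for GDF2, was covered over 18454 bp in both DMSO replicates and over 13145 and 10109 bp with GSK126. At equal tag number it was covered over 18454 bp in both DMSO replicates and over 17654 and 13854 bp with GSK126. In the standard lists 1 of 9 marked pathway genes kept 50% or less in both replicates, against 15.7% of all marked genes. H3K4me3 was at the start of 12 receptors, all 8 SMADs and all 8 targets in both DMSO replicates, against 61.9% of all genes.

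Among the 17 extracellular antagonists and decoys, 6 (35.3%, against 27.6% of all genes) carried H3K27me3 in both DMSO spike-in lists (among them CHRD, CHRDL1, CHRDL2, DAND5 and BMPER), 9 (52.9%, against 61.9%) had H3K4me3 at the start, and 4 of the 6 (66.7%, against 56.3%, among them CHRDL2, DAND5 and BMPER) kept 50% or less of H3K27me3 in both replicates. In the standard lists DAND5 alone of 5 marked antagonists kept 50% or less in both replicates. BMPER, a modulator of BMP signalling, was covered over 43200 and 51000 bp with DMSO and 4400 and 0 bp with GSK126 in the spike-in lists. At equal tag number BMPER was covered over 37600 and 42200 bp with DMSO and 29400 and 20600 bp with GSK126. CHRD, the BMP antagonist chordin, was covered over 12683 bp in all 4 spike-in lists and all 4 standard lists, which is its whole window. At DAND5, an antagonist of nodal, 3774 and 5574 bp were covered with DMSO and 0 bp with GSK126 in the spike-in lists. The standard lists gave 3974 and 5574 bp with DMSO and 1774 and 174 bp with GSK126. BAMBI, a pseudoreceptor, and NBL1, a BMP antagonist, are named because their values went the other way in the standard lists, as they did at 0.261% of genes without H3K27me3 in DMSO. BAMBI was covered over 0 bp in both DMSO standard lists and over 5800 and 1600 bp with GSK126, and NBL1 over 0 bp with DMSO and over 5000 and 2400 bp with GSK126. Neither had an H3K27me3 island in the spike-in lists.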

How the data were processed

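H3K27me3 and H3K4me3 were measured by ChIP-seq in PC9 cells, with 2 replicates for each treatment. The authors aligned 50-nt tags to hg19 with BWA, removed duplicates and tags that did not map uniquely, removed further tags at random for the standard or the spike-in normalization, and called islands in each library with SICER 1.1 (E-value 1, windows of 200 bp, and a gap size of 600 bp for the H3K27me3 libraries or 200 bp for the H3K4me3 libraries). Per the labels, SAMtools 0.1.18 was used as well. The deposited lists give coordinates and a score, which is the sum of negative natural log Poisson probabilities of the tag counts of an island. Each H3K4me3 DMSO library has a single list, which served for both normalizations.

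From these, covered lengths were taken (Python 3.11.15, NumPy 2.4.6) over GENCODE 44 genes on GRCh37, for the ligands and all protein-coding genes alike, with 2000 bp added upstream. Lengths summed over genes count shared windows once. GSK126 was compared with DMSO within a replicate, as the authors removed tags within each, and the replicate numbers of the libraries came from the study's table of tag numbers. SciPy 1.17.1 was used to fit the number of tags per window to the scores of the shortest islands, those of at most 2 windows. Lengths, calls and densities were tested on simulated data. The lists hold no tag counts, so no counting intervals were computed. Uniqueness is the share of 50-base words found once in the reference genome on either strand. Plots were drawn with Matplotlib 3.10.9.

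All 32 ligands are accounted for, with values in every H3K27me3 list for those marked by H3K27me3 in both DMSO spike-in lists, and other genes are named where they share an island, window or near-identical sequence. The members, gene lists and measures were chosen with earlier results of these data known. Alternatives were a stricter island score, the gene body alone, 5000 bp upstream, a minimum overlap, each replicate left out, no replicate pairing, DMSO standard lists against GSK126 spike-in lists, and 2000 bp around the start. KARPAS-422 data were not analysed here. An antagonist gene that enters the counts is not reported here by name.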

Additional observations from a re-analysis of the deposited data

How the results depend on the processing

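Of the results over the 32 ligands, the log2 ratios of summed length kept their sign under every alternative that was run, and no count or ratio reversed. With islands of at least 2 times the lowest score of a list, 9 ligands instead of 14 were marked by H3K27me3 in DMSO, 5 instead of 10 kept 50% or less of their length in the spike-in lists, 3 instead of 8 had no island left, and 1 instead of 2 (INHBB) had both marks at the start. With DMSO standard lists against GSK126 spike-in lists, 6 ligands kept 50% or less, 4 had no island left, and the log2 ratio of summed H3K27me3 length was -0.91 instead of -1.02. With 5000 bp upstream, 1 ligand instead of 2 kept 50% or less in the standard lists. Without BMP7, an alternative chosen after the data were seen, the log2 ratio was -1.93 in the spike-in and -0.61 in the standard lists. Other alternatives chosen after the data were seen, a start at the 5′ end of the annotated gene and H3K4me3 islands at the ligand's own start, moved no result beyond its limits. The cause of these shifts was not tested, except that BMP7 kept its length.

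Without the replicate block, where each GSK126 list was set against the mean of both DMSO lists, the log2 ratio of summed H3K4me3 length in the spike-in lists was -0.16 instead of -0.10, and the other results stayed within 1.5 times (counts) or 1 SD (ratios). When either replicate was left out, 5 to 6 ligands kept 50% or less of H3K27me3 in the standard lists instead of 2, namely BMP8A and GDF2 with TGFB3, BMP8B, NODAL and INHA in replicate 2 and with GDF1, INHBC and INHBE in replicate 1, and 0 to 1 (BMP7) kept 50% or less of H3K4me3. In total, 81 of the recomputed values stayed within these limits and 14 moved. The lists hold islands and not tags, so weak H3K27me3 or H3K4me3 below the calling threshold cannot be seen, and replicate 2 of H3K4me3 was the shallowest.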
